A study of Homo sapiens with 4 samples.

Results

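The clustered protocadherins are 3 neighbouring gene families, PCDHA, PCDHB and PCDHG, on chromosome 5. Their H3K4me1 peaks were taken from a list of regions where chromatin immunoprecipitation (ChIP) reads of an LSD2 knockdown library exceeded those of a control library. Every distinct peak overlapping the interval from 140.16 to 140.9 Mb of chromosome 5 (hg19) was a member, which gave 27 of the 160601 distinct peaks in the list. Membership was decided by position. The interval itself was picked when it was already known that some of its peaks had been written many times in the list, so those counts are given below as a description.

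The series holds 4 samples of HepG2, a human liver tumour cell line, with 1 sample in each of 4 groups. The cells were transfected with siRNA. The pair of ChIP libraries behind the list were made with an antibody against H3K4me1, histone H3 monomethylated at lysine 4, a mark of enhancers and promoter flanks. One came from cells labelled LSD2-knockdown and the other from cells labelled control, whose siRNA the file header names as siGL3, after a luciferase reporter sequence; both were grown in the same high-glucose medium. LSD2, also called KDM1B, removes methyl groups from lysine 4 of histone H3. The other samples are the inputs of both conditions, and the header of the peak call names neither. No group had a replicate, so no test between conditions was possible, and every value below describes 1 pair of libraries. Library depth is unknown, because no source used here gives read totals. The list records gains in the knockdown library only. A stretch without a peak may therefore have had equal, lower or too few reads there. The level of LSD2 after knockdown and the identity of the cells cannot be read from peak positions.

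Clustered protocadherins are cell-surface adhesion proteins, best known in neurons, where each cell expresses its own combination of them and so tells its own branches from those of others. In PCDHA and PCDHG, each gene begins at its own promoter and large variable exon, which is spliced to a few constant exons that the whole family shares at the far end. PCDHB genes have no shared constant exons; each stands alone. The choice of promoter involves the factor CTCF and distant enhancers, and most of these promoters carry a conserved element with the core CGCT.

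The RefSeq gene table, which is on GRCh38.p14 and was used for names, order and overlap only, places the families in the order of the label. It lists 15 protein-coding PCDHA genes, from PCDHA1 to PCDHAC2, all with 1 common gene end, so that 15 genes overlap at the deepest point. The 16 protein-coding PCDHB genes, from PCDHB1 to PCDHB15 in map order, have 16 separate ends and do not overlap one another. The 22 protein-coding PCDHG genes, from PCDHGA1 to PCDHGC5, again have 1 common end and a deepest overlap of 22. ZMAT2 precedes PCDHA1 among protein-coding genes. SLC25A2, a mitochondrial carrier gene, and TAF7, a subunit of the general transcription factor TFIID, lie between PCDHB15 and PCDHGA1. DIAPH1, a formin that assembles actin filaments, follows PCDHGC5. No hg19 annotation was used, so no peak below is assigned to a gene, exon or promoter.

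Matches to the core of the promoter element, and to a longer motif holding it, are shown here as background to the families. Promoter sequences of 300 bases, from 250 before to 50 after the start site, were matched by symbol in the RefSeq table (GRCh38.p14) for 13 PCDHA, 14 PCDHB and 20 PCDHG genes. The core CGCT was searched on both strands. It was found for 12 of 13 PCDHA, 14 of 14 PCDHB and 20 of 20 PCDHG genes. Of the 35064 other promoters of the table, 69.97% held it. For both motifs, a family gene counted once if any of its promoters matched, while the others were counted promoter by promoter. The longer motif GTCGCT contains CGCT and was chosen after the promoters were read. On either strand, 11 of 13 PCDHA, 2 of 14 PCDHB and 6 of 20 PCDHG genes had it, against 7.93% of the others. The first matches in map order, up to 3 for each family, are printed 5′ to 3′ with GTCGCT in capitals; all are on the plus strand, and their GRCh38.p14 positions cannot be set against the hg19 peaks.
PCDHA1, chr5:140786086-140786115: attggccacatgatGTCGCTgtacaccaca
PCDHA2, chr5:140794781-140794810: tttagccacatgatGTCGCTgtccaccata
PCDHA4, chr5:140806979-140807008: tggagccacatgatGTCGCTctttaccaca
PCDHB1, chr5:141051274-141051303: gactggggagttgaGTCGCTcaatgcaaat
PCDHB4, chr5:141121782-141121811: gcgtattcttctgtGTCGCTagacgcaatc
PCDHGA2, chr5:141338703-141338732: ttaggcctctgagcGTCGCTgttgaccacc
PCDHGA3, chr5:141343767-141343796: ttaggcctcttagtGTCGCTgttgaccact
PCDHGA4, chr5:141354960-141354989: ttaagactctgggtGTCGCTgttcaccaat
The matches begin between 22 and 86 bases before the start site. In the 3 PCDHA sequences the 10 bases directly before the motif are also identical. This run was counted outward from the motif and stopped at the first difference. It was 0 bases in the 2 PCDHB and in the 3 PCDHG sequences, where the base next to the motif differs. Bases beyond that were not counted, and some are the same in all 3 PCDHG sequences. A match describes letters in this window and is not evidence of a bound factor or of a peak. Nor was any match shown to be the conserved element. GTCGCT was chosen from these promoters, so its difference between families is a description. Its PCDHB share, 14.3%, rests on 2 matches, beside 7.93% of the others.

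The protocadherin interval held fewer knockdown-gained H3K4me1 peaks for its length than the chromosome on either side of it. Its 27 peaks over 0.74 Mb amounted to 36.5 peaks per Mb (95% Poisson interval 24.04 to 53.1). The 1 Mb before it held 61 peaks and the 1 Mb after it held 64, together 62.5 peaks per Mb (52.02 to 74.5). The ratio of the interval to both flanks was 0.584, with an exact 95% interval of 0.37 to 0.89. These intervals reflect counting error alone, with peaks taken as independent of each other. The flanks themselves were alike in count, with a ratio of 0.953 and an interval of 0.66 to 1.38.

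**Figure D1:**
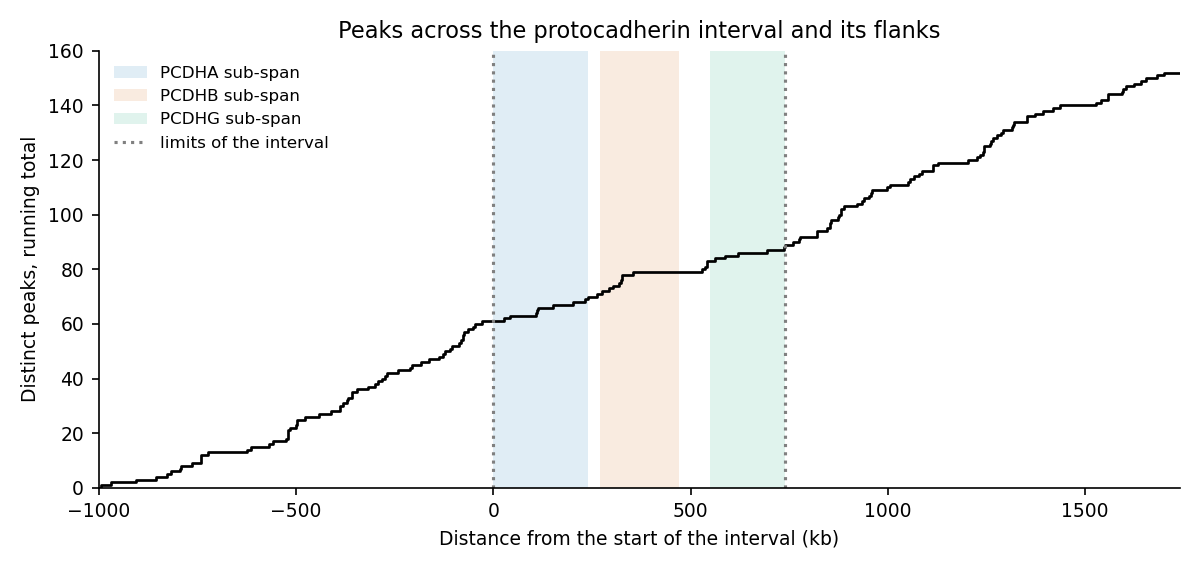
Running total of distinct peaks (vertical axis) against distance in kb from the start of the protocadherin interval (horizontal axis), across the interval and 1 Mb on each side. Shading marks the PCDHA, PCDHB and PCDHG sub-spans. The line climbs by 61 peaks before the interval, by 27 within it and by 64 after it, and is flat for 174.8 kb from within PCDHB onward.

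Against chromosome 5 as a whole the lower density was less clear. The rest of the chromosome carried 53.02 peaks per Mb, and the ratio of 0.688 had an interval of 0.453 to 1.002, which includes 1. Chromosome 5 was also divided into windows of 740 kb, the length of the interval, tiled outward from it. The 237 other windows held a median of 39 peaks, with quartiles of 28 and 48 and a range from 2 to 82. That spread is wider than counting error alone would give, so the Poisson and ratio intervals given here are too narrow. The interval's 27 peaks were just under the lower quartile, and 48 of the 237 windows held fewer. The interval was therefore sparse for its neighbourhood, and many windows of chromosome 5 were as sparse or sparser.

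PCDHB had the most peaks per Mb of the 3 sub-spans and PCDHG the fewest, but 8, 8 and 5 peaks do not separate them. PCDHA, from 140.16 to 140.4 Mb, held 8 peaks, or 33.3 per Mb (14.4 to 65.7). PCDHB, from 140.43 to 140.63 Mb, also held 8, or 40.0 per Mb (17.3 to 78.8). PCDHG, from 140.71 to 140.9 Mb, held 5, or 26.3 per Mb (8.54 to 61.4). The ratio of PCDHB to PCDHA was 1.2 (0.393 to 3.67), that of PCDHG to PCDHA 0.789 (0.203 to 2.74) and that of PCDHB to PCDHG 1.52 (0.438 to 5.91). The remaining 6 peaks lay between the sub-spans: 2 in the 30 kb between PCDHA and PCDHB, and 4 in the 80 kb between PCDHB and PCDHG. Each sub-span's estimate was below that of the flanks, with ratios of 0.533 for PCDHA (0.225 to 1.08), 0.64 for PCDHB (0.27 to 1.3) and 0.421 for PCDHG (0.134 to 1.009). Each of these intervals includes 1.

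**Figure D2:**
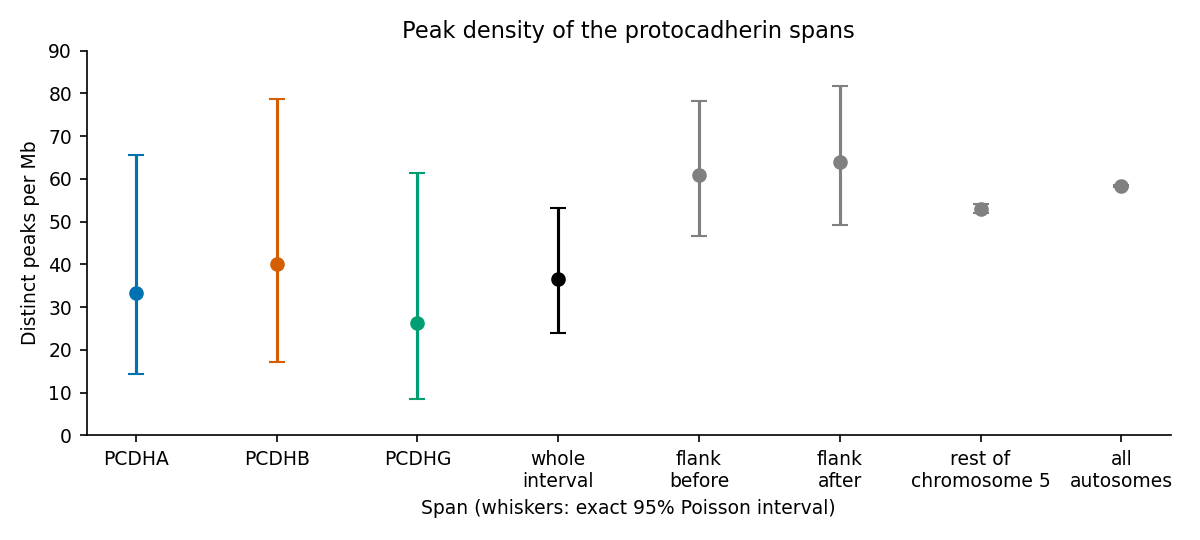
Distinct peaks per Mb (vertical axis) in each sub-span, the whole interval, each flank, the rest of chromosome 5 and all autosomes. Points are densities and whiskers exact 95% Poisson intervals, which cover counting error only; the whole interval is at 36.5 and the flanks at 61 and 64 peaks per Mb.

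The PCDHA peaks came in 1 tight group and several lone peaks. The first peak of the interval was at chr5:140185931-140186225, 54.6 kb after the last peak of the flank. The next, at chr5:140202134-140202328, followed 15.9 kb later. A stretch of 65.4 kb without a peak came before a group of 3 peaks, at chr5:140267717-140268081, chr5:140270203-140270411 and chr5:140272121-140272324. Within this group the gaps were 2.12 and 1.71 kb, and no other PCDHA peak had a neighbour within 5 kb. The last 3 peaks were spread over the later part of the sub-span, at chr5:140310319-140310720, chr5:140363095-140363250 and chr5:140391742-140392055. They stood 38.0, 52.4 and 28.5 kb from the peak before each.

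The PCDHB peaks were all in the first part of the sub-span. They began at chr5:140435436-140435829 and ended at chr5:140513153-140513508. The closest of them were 3 peaks at chr5:140483244-140483584, chr5:140485304-140485534 and chr5:140486025-140486219, with gaps of 1.72 kb and 490 bp. From the start of the sub-span to the end of its last peak, 83.5 kb held all 8 peaks, a local density of 95.8 per Mb. The other 116.5 kb of PCDHB held 0, because the division was made at the last peak after the positions were seen; the contrast describes these peaks and has no interval.

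The longest stretch without a peak in the interval ran from within PCDHB toward PCDHG. It spanned 174.8 kb, at chr5:140513509-140688273, and the peak that ended it was at chr5:140688274-140688636. Of the 9403 gaps of up to 1 Mb between neighbouring peaks of chromosome 5, 10 were longer. In the whole list, 0.25% of such gaps were at least as long. Without its 174.8 kb, a comparison added after seeing the data, the interval had 47.8 peaks per Mb and the ratio to the flanks was 0.764 (0.485 to 1.17), which no longer excludes 1. Taking out empty length from the interval alone can only raise the ratio, so its rise is no result. The next longest stretches of the interval were 72.7 kb in PCDHG and the 65.4 kb in PCDHA given above, neither rare on chromosome 5, where 294 and 387 gaps were longer.

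The 5 PCDHG peaks lay far apart, and the 4 peaks just before them close together. Of the 4 peaks between PCDHB and PCDHG, the last 3 were at chr5:140697443-140697816, chr5:140701587-140701815 and chr5:140702522-140702683, with gaps of 3.77 kb and 706 bp. The PCDHG peaks were at chr5:140721764-140722014, chr5:140748090-140748466, chr5:140781533-140781719, chr5:140854440-140854594 and chr5:140897415-140897608. The gaps between them were 26.1, 33.1, 72.7 and 42.8 kb. The last of them was 2.50 kb from the first peak of the flank after the interval, its only neighbour within 5 kb.

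The median gap was longer in the interval than in the flanks. The 26 gaps between consecutive members had a median length of 16.8 kb, and their quartiles were 6.03 and 31.9 kb. For the gap before each flank peak the median was 10.2 kb, between quartiles of 3.99 and 21.0 kb. Another peak lay within 5 kb of 10 of the 27 members, or 37.0% (95% Wilson interval 21.5 to 55.8%), against 52.2% of all peaks in the list and 48.0% of the flank peaks (39.4 to 56.7%). Those last intervals overlap, so a lower share in the interval is not shown.

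The members' median width was below that of the flanks, by less than 27 widths can resolve. Widths of members ran from 154 to 426 bp with a median of 231 bp and quartiles of 194.5 and 364 bp. Flank peaks ran from 156 to 1150 bp with a median of 306 bp, which was also the median on the rest of chromosome 5. An interval for the members' median, from the order of the 27 widths, was 195 to 363 bp and includes 306 bp. Of the 237 other 740 kb windows of chromosome 5, 3 had a narrower median, and 26 had a widest peak no wider than 426 bp. One member, or 3.70% (95% Wilson interval 0.657 to 18.3%), was 420 bp or wider, against 17.8% of the list and 20% of flank peaks (13.9 to 27.9%). The members' interval includes the share of the list. It lies below the 20% of the flanks but overlaps their interval, so a lack of wide peaks is not shown. At the other end, 5 members, or 18.5% (8.18 to 36.7%), were narrower than 170 bp, against 8.22% of the list and 2.40% of flank peaks (0.82 to 6.82%). The interval of this share includes that of the list and lies above that of the flanks.

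The widest members were found in each sub-span. In PCDHB these were the 426 bp peak at chr5:140464149-140464574 and the first PCDHB peak, at 394 bp. PCDHA had the 402 bp peak at chr5:140310319-140310720. PCDHG had a 377 bp peak at chr5:140748090-140748466, and the first peak after PCDHA, at chr5:140400584-140400958, was 375 bp. The narrowest were also spread over the sub-spans. They were 154 bp at chr5:140477889-140478042 in PCDHB, 155 bp at chr5:140854440-140854594 in PCDHG and 156 bp at chr5:140363095-140363250 in PCDHA. Median widths were 252 bp in PCDHA, 286 bp in PCDHB, 194 bp in PCDHG and 296 bp between PCDHB and PCDHG, each over 8 peaks or fewer. The ranges of the 3 sub-spans overlapped almost entirely. The ratio to the flanks was lower for covered bases than for counts, where it was 0.584. Peaks covered 0.983% of the interval and 2.14% of the flanks, a ratio of 0.459. The covered ratio has no interval and includes the width difference, which was not resolved above.

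**Figure D3:**
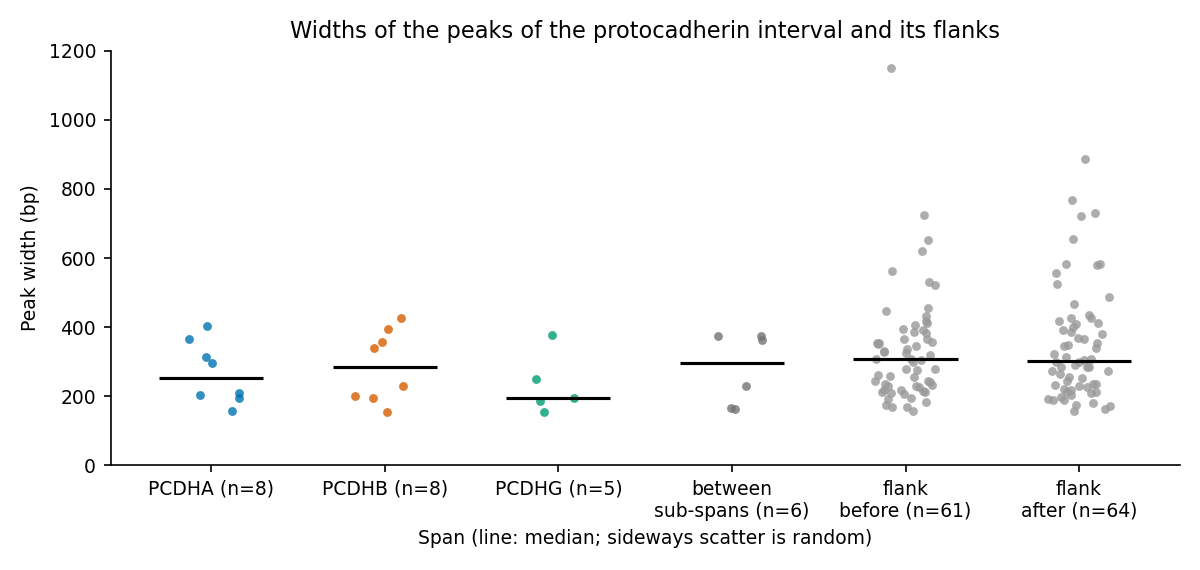
Width in bp (vertical axis) of every peak in the sub-spans, between them and in the flanks, 1 point a peak, with a line at each median. No member passes 426 bp, while flank peaks reach 1150 bp.

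Members were written more often in the deposited list than other peaks, in PCDHA and PCDHG and not in PCDHB. A distinct peak usually had 1 row, and 10.7% of the list had more. In the interval, 14 of 27 had more than 1 row, or 51.9% (95% Wilson interval 34.0 to 69.3%). That share alone was close to the 44.3% (32.5 to 56.7%) of the flank before the interval, where 27 of 61 peaks were repeated, and above the 12.5% (6.47 to 22.8%) of the flank after it. These Wilson intervals take peaks as independent, but repetition went by place: all 8 PCDHA peaks were repeated and no PCDHB peak was. The protocadherin interval was also picked with some row counts known. The shares are therefore a description, and their Wilson intervals allow no inference. The height of the repetition was what differed. Members had 5.67 rows each on average and up to 20, while flank peaks had 1.33 and at most 4. The medians were closer, 2 rows for members and 1 for flank peaks, so the most repeated members raised the average. No peak on the rest of chromosome 5 had more than 5 rows. None of the 237 other windows had more rows per peak, and the next highest window had 1.59.

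All 8 peaks of the list with 13 or more rows lay in the interval, 6 in PCDHA and 2 in PCDHG. With a lower limit of 7 rows, the interval held 9 of 25 such peaks, or 33.3% of its members against 0.0156% of the list. Outside the interval the most rows of any peak was 10, on chromosome 2. The interval held 0.0168% of the distinct peaks and 0.633% of the 19904 rows beyond the first of each peak.

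Rows differed by sub-span, and the families that the sub-spans are named for differed in overlap in the gene table. In PCDHA, whose genes share their end, all 8 peaks were repeated. In chromosome order their rows were 4 and 5, then 13 for each peak of the tight group, then 14, and 15 for the last pair. Of the 7 steps from one PCDHA peak to the next, 4 rose, 3 were level and 0 fell. Just 8.53 kb after the last PCDHA peak, the next peak had 1 row. In PCDHB, whose genes do not overlap, all 8 peaks had 1 row. Both peaks between PCDHA and PCDHB also had 1 row, as did the first pair between PCDHB and PCDHG, and the second pair had 2.

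PCDHG also had rows that rose from peak to peak, up to its last peak. Of its 4 steps, 3 rose, 0 were level and 1 fell. Its first peak had 3 rows, and the next ones had 8, 13 and 20. The last, at chr5:140897415-140897608, had 1 row, like the flank peak beside it. Whether this last peak lies among the PCDHG genes was not determined. PCDHA thus reached 15 rows where the gene table holds 15 overlapping PCDHA genes, PCDHB had 1 row where the deepest overlap is 1, and PCDHG reached 20 rows where the deepest overlap is 22. These are counts set side by side. That a row stands for a gene was not tested, since neither the file header nor the labels say why peaks were repeated and no hg19 gene positions were used.

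**Figure D4:**
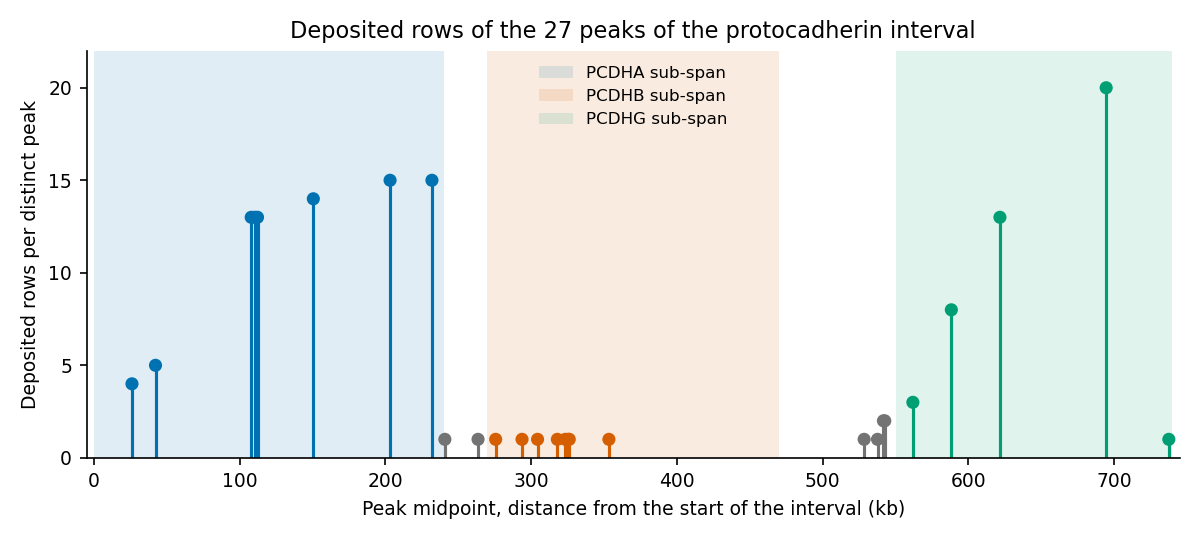
Deposited rows per distinct peak (vertical axis) against distance in kb from the start of the interval (horizontal axis) for the 27 members; shading and colour mark the sub-spans, and grey points lie between them. Rows climb from 4 to 15 across PCDHA, stay at 1 across PCDHB and climb from 3 to 20 across PCDHG before ending at 1.

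Repeated and single members had almost the same range of widths, but the repeated ones had the lower median. This difference was not tested. The 14 members with more than 1 row had a median width of 219 bp (155 to 402 bp), and the 13 written once had 341 bp (154 to 426 bp). The peak with the most rows in the whole list, 20, was the second narrowest of the interval at 155 bp.

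A run of consecutive peaks with 7 or more rows each was found at 4 places in the list, and 2 of these were in the interval. The PCDHA run held 6 peaks over 124.3 kb and the PCDHG run 3 peaks over 106.5 kb. The longest run by number, 8 peaks over 54.5 kb at chr2:234620293-234674784, had between 7 and 10 rows. In chromosome order its rows were 7, 7, 7, 7, 7, 9, 10 and 9, so they also rose before falling at the last peak. The last run was a pair on chromosome 2 with 7 rows each. Every peak of the PCDHA run, with 13 rows or more, was written more often than any peak of the chromosome 2 runs, while the PCDHG run began at 8 rows, within the range of the longer one. Median widths were 261.5 bp in the PCDHA run, 187 bp in the PCDHG run, and 326 and 338 bp in the chromosome 2 runs.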

How the data were processed

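Crosslinked HepG2 chromatin was sheared by sonication, immunoprecipitated and sequenced on semiconductor instruments, per the labels' protocols. The submitters' processing notes name BWA and hg19, with no version given. MACS was run by the authors on trimmed reads without duplicates, comparing the siLSD2 H3K4me1 library with the siGL3 one, per the file header. Its settings there were reads and fragments of 128 bp, a genome of 2700000000 bp, a p cutoff of 1e-05, 32 as the enrichment factor, and local bias detection. The deposited file holds 3 columns, chromosome, start and end, and no score, fold or p-value.

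The 180505 deposited rows were collapsed to 160601 distinct peaks, none overlapping another, and starts were converted to count from 1. A peak belonged to a span if any base overlapped it. Chromosome lengths ran from first to last peak less gaps over 1 Mb. Densities have exact Poisson intervals, shares Wilson intervals and density ratios exact conditional binomial intervals (95%). Alternatives covered membership by midpoint, merging, width, rows, covered bases, flank length and neighbour distance. Python 3.11.15 and scipy 1.17.1 were used, and the steps were tested on simulated data. Positions printed are the widest 5, the narrowest 3, the most repeated, the first and last of each sub-span and those beside long gaps; others were added after their values were seen. The interval, sub-spans and measures were chosen with earlier results of these data known.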

Additional observations from a re-analysis of the deposited data

How the results depend on the processing

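Of 43 alternatives, 28 stayed within the 95% interval of the value reported, 14 moved outside it and 1 reversed. This tally does not measure robustness. The 9 alternatives by peak midpoint could not move, since no member crossed a limit of a span. Of those that moved, 4 were covered bases, set against an interval in peaks. The cause of the moves was not tested except where the alternative itself sets the value. Counting every deposited row reversed the ratio to the flanks, to 2.49, by construction, since members were written more often; it gave 206.8 rows per Mb for the interval, 383.3 for PCDHA and 236.8 for PCDHG. The other alternatives for this ratio ran from 0.459 (covered bases) to 0.764 (without the longest peak-free stretch), with 0.507 for flanks of 0.5 Mb and 0.509 for flanks of 2 Mb. Keeping the 10 members at or above the list's median width of 316 bp left 13.5 peaks per Mb in the interval, 8.33 in PCDHA and 5.26 in PCDHG, a repeated share of 30% and 0% with a neighbour within 5 kb. Covered bases came to 9.83 kb per Mb in the interval, 8.92 in PCDHA, 11.5 in PCDHB and 6.13 in PCDHG, in another unit than peaks. The share with a neighbour was 14.8% at 1 kb and 77.8% at 20 kb. Merging peaks within 1 kb left 25 members with a median width of 314 bp. The single flanks and the removal of the stretch were chosen after seeing the data. No leave-one-out could be made. No paired analysis was possible because there was a single library per condition, unnumbered in the labels. Densities are limited by the unknown depth.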
